A study of Mus musculus with 9 samples.

Results

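MHC class II genes and the genes of their peptide-loading machinery were followed in type 2 conventional dendritic cells (cDC2s) from the spleens of C57BL/6 mice. The 10 genes are the classical class II chains H2-Aa, H2-Ab1, H2-Eb1 and H2-Eb2, the invariant chain Cd74, the H2-DM chains H2-DMa, H2-DMb1 and H2-DMb2, and the H2-O chains H2-Oa and H2-Ob. They were chosen by name, as rows of a count table of 14209 genes, and 10 of 10 passed the filter on low counts that left 12043 genes for testing. RNA was sequenced from 3 Gα13-deficient, 3 CD97-deficient and 3 wild-type (WT) libraries. Gα13-deficient mice carried floxed Gna13 alleles (Gna13fl/fl) and CD11c-Cre, a recombinase driven by the promoter of the integrin CD11c, which is active in dendritic cells and in some other leukocytes. The genotype entry of these samples also names Adgre5-/-. CD97-deficient mice lacked Adgre5, the gene of the adhesion receptor CD97 (Adgre5-/-; the sample entry reads CD97 KO). The sources used here give neither ages nor whether WT and CD97-deficient mice carried the Cre transgene. The labels do not tie the 3 libraries of a group to separate mice, and the tests then measure the spread between libraries, which may be technical.

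Class II molecules are pairs of an α and a β chain that show peptides from endosomes to CD4 T cells. The invariant chain holds new pairs together, blocks their groove and steers them to endosomes, where it is cut down to the fragment CLIP. H2-DM then removes CLIP and edits the bound peptides, and H2-O binds H2-DM and restrains it. C57BL/6 mice lack a working Eα chain gene, so their E β chains have no usual partner at the surface. Most of these genes are switched on together by the coactivator CIITA, which acts with the RFX complex on the X box and with NF-Y on the Y box of their promoters.

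Libraries held 5679946 to 13904646 counts, and the 10 genes together took 2.74 to 3.19% of them. The lowest count of any of the 10 genes in any library was 724. Gna13 had 114, 96.8 and 91.7 CPM (share of a library's counts, scaled by TMM factors) in Gα13-deficient libraries, against 227, 228 and 186 CPM in WT libraries, with the log2 fold change at -1.09 ± 0.11 (SE; adjusted p = 6.84e-05, edgeR quasi-likelihood test). Cd97, the older symbol of Adgre5 in the table, had 726, 840 and 438 CPM in CD97-deficient libraries, against 1506, 899 and 1299 CPM in WT libraries. Its log2 fold change of -0.89 ± 0.28 missed the threshold (SE; adjusted p = 0.105, edgeR quasi-likelihood test). Cd97 was called in 0 of 9 fits with 1 library left out and in 2 of 11 other alternatives with at least 2 libraries a group. Those 2 were DESeq2 (adjusted p = 0.0172) and a replicate block by the numbers of the table's columns (adjusted p = 0.00771). The Cd97 count is over the entire gene, and the sources used here do not give the deleted part. In the Gα13-deficient libraries, whose genotype entry also names Adgre5-/-, Cd97 had 1145, 1224 and 1016 CPM, above every CD97-deficient library. All 15 of a list of cDC2 markers were detected, with a summed level of 5926 to 6411 CPM in Gα13-deficient, 5278 to 5772 CPM in CD97-deficient and 5994 to 6905 CPM in WT libraries. Within that sum 6 of the 15 were called in Gα13-deficient against WT cells, beside 11% of all tested genes. They are named here after their values were seen. Dpp4 (-0.49), Irf4 (-0.37), Esam (-0.53) and Cd4 (-0.66) were lower, with log2 fold changes in brackets, and the integrin chains Itgam (0.42) and Itgax (0.34) were higher. In CD97-deficient cells Dpp4 alone was called (-0.39), beside 8.53% of all tested genes. Cd4 (-0.67) and Esam (-0.43) missed the threshold there (adjusted p = 0.055 and 0.113, edgeR quasi-likelihood test). Irf4 (-0.16), Itgam (0.09) and Itgax (-0.06) changed less there and were not called (adjusted p = 0.29, 0.506 and 0.704, same test). These markers differ between cDC2 subsets, and the part of a shift in subsets in the class II values was not tested. Xist was high and Y-linked genes low, a female pattern, in 1 of 3 Gα13-deficient, 3 of 3 CD97-deficient and 1 of 3 WT libraries, and in both of the mixed groups that library is replicate 2.

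Cd74 and 3 of the 4 classical class II chains were among the most abundant RNAs of WT cells. Among 14016 genes with a length, WT cells ranked Cd74 at 1, H2-Aa at 4, H2-Ab1 at 5 and H2-Eb1 at 8 by CPM per kilobase of exon. Cd74 averaged 6589 ± 370, 6112 ± 273 and 6836 ± 195 CPM per kilobase in Gα13-deficient, CD97-deficient and WT cells (SD, n = 3 each). H2-Aa, the α chain of the A molecule, averaged 2303 ± 72.5 CPM per kilobase in WT cells, close to its β chain partner H2-Ab1 at 2220 ± 133 (SD, n = 3 each), and H2-Eb1, the E β chain, reached 1710 ± 64.6. The loading genes stood far lower and close to each other. In WT cells H2-Oa averaged 148 ± 22.0, H2-Ob 130 ± 27.5, H2-DMb2 121 ± 9.49, H2-DMb1 107 ± 20.1 and H2-DMa 102 ± 7.60 CPM per kilobase (SD, n = 3 each), and each neighbour in that order lay within the spread of the next. H2-Eb2, a second E β chain gene beside H2-Eb1, was the least abundant at 71.8 ± 6.06 CPM per kilobase and ranked 434. The plot of levels by library shows these 3 tiers.

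**Figure D1:**
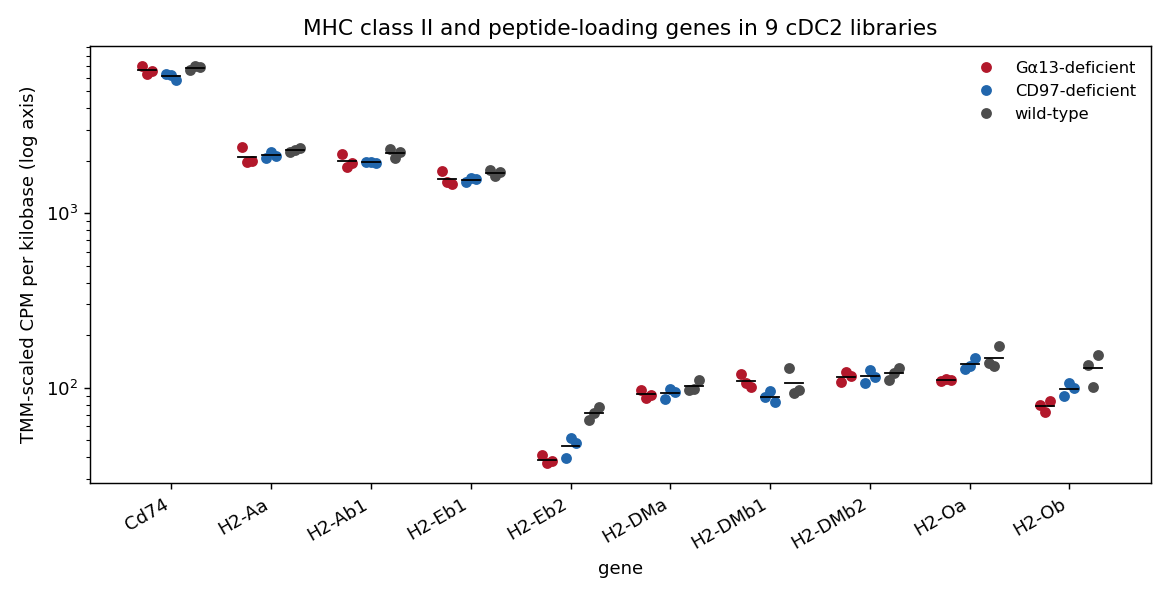
TMM-scaled CPM per kilobase of exon (log axis) of the 10 genes in each library, with a bar at each group mean. H2-Eb2 lies at 65.7 to 77.8 in WT libraries and below that in every knockout library, while Cd74 stands highest in all 9 libraries.

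Loss of Gα13 came with lower RNA of 3 of the 10 genes, H2-Eb2, H2-Ob and H2-Oa, and with higher RNA of 0. The 3 are a minor E β chain and both chains of H2-O, the inhibitor of H2-DM. Of all tested genes 5.24% were called lower in the same comparison at an adjusted p under 0.05, and 5.74% higher. Scaled by library totals alone, 523 genes were called lower and 861 higher, against 631 and 691 with TMM factors. The abundant classical chains, the invariant chain and the 3 H2-DM genes did not pass. Of the 10 genes 9 had a log2 fold change below zero, and their median was -0.14, against -0.01 over all tested genes. In bulk RNA, fewer cells making a transcript and less of it per cell cannot be told apart.

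H2-Eb2 (chr17:34325665-34341412, plus strand, mm10) had 139, 126 and 129 CPM in Gα13-deficient libraries, against 223, 244 and 264 CPM in WT libraries. Every Gα13-deficient library was below every WT library, and Gα13-deficient libraries differed little among themselves. The log2 fold change was -0.89 ± 0.10 (SE; 95% interval -1.11 to -0.67; adjusted p = 0.000172, edgeR quasi-likelihood test), or 54.0% of the WT level. H2-Eb2 was called in 9 of 9 fits with 1 library left out and in 12 of 12 other alternatives with at least 2 libraries a group. This gene was the most strongly changed of the 10.

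H2-Ob (chr17:34238903-34254414, plus strand), the H2-O β chain, had 430, 392 and 450 CPM in Gα13-deficient libraries, against 731, 541 and 832 CPM in WT libraries. The groups did not overlap, and the WT library nearest to the Gα13-deficient ones was replicate 2, which has the female pattern. The log2 fold change was -0.72 ± 0.13 (SE; adjusted p = 0.005, edgeR quasi-likelihood test), or 60.5% of WT. Without WT replicate 2 it was -0.88 (adjusted p = 4.14e-05), and within the male-pattern libraries -0.83 (adjusted p = 0.00527). Between the single female-pattern libraries it was -0.46, a value with no test. H2-Oa (chr17:34092340-34095234, plus strand), the H2-O α chain, had 154, 158 and 156 CPM in Gα13-deficient libraries, against 194, 188 and 244 CPM in WT libraries. These groups did not overlap either, and WT replicate 3 was the highest. The log2 fold change was -0.42 ± 0.10 (SE; adjusted p = 0.0148), or 74.7% of WT. H2-Oa was not called without Gα13-deficient replicate 1, Gα13-deficient replicate 2 or WT replicate 3 (adjusted p = 0.0518, 0.0539 and 0.0573), nor within the male-pattern libraries (-0.50, adjusted p = 0.0786), nor with a replicate block by column numbers (-0.27, adjusted p = 0.115). The single female-pattern libraries differed by -0.25, with no test. The antisense gene BC051537 overlaps H2-Oa on the other strand, at 2.26 to 2.86 CPM in Gα13-deficient and 4.58 to 5.10 CPM in WT libraries, and the sources used here do not say whether reads were counted by strand.

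The other 7 genes had small log2 fold changes in Gα13-deficient cells, between -0.15 and 0.03, and their 95% intervals all included zero. H2-Aa had 9059, 7472 and 7572 CPM in Gα13-deficient libraries, against 8494, 8702 and 9040 CPM in WT libraries (log2 fold change -0.12, 95% interval -0.30 to 0.06). Gα13-deficient replicate 1 had the highest H2-Aa of all 9 libraries and the other two the lowest. The intervals were -0.33 to 0.02 for H2-Ab1, -0.29 to 0.06 for H2-Eb1, -0.21 to 0.10 for Cd74 and -0.33 to 0.03 for H2-DMa. H2-DMb1 (0.03, interval -0.23 to 0.28) and H2-DMb2 (-0.07, interval -0.26 to 0.13) encode alternative H2-DM β chains. They share 22.7% and 21.2% of the 50-base words of all their annotated transcripts, so reads may have been left out or assigned between them. H2-DMa had 335, 300 and 315 CPM in Gα13-deficient libraries, against 336, 338 and 383 CPM in WT libraries, which did not overlap, although the test was not passed (adjusted p = 0.269). Brd2 overlaps H2-DMa on the other strand and averaged 373, 349 and 376 CPM in Gα13-deficient, CD97-deficient and WT libraries. The use of strand in counting is not given, which limits the H2-DMa values and the ratios with H2-DM below. In all, 4 of the 10 genes lay below WT without overlap, beside 14% of all tested genes.

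**Figure D2:**
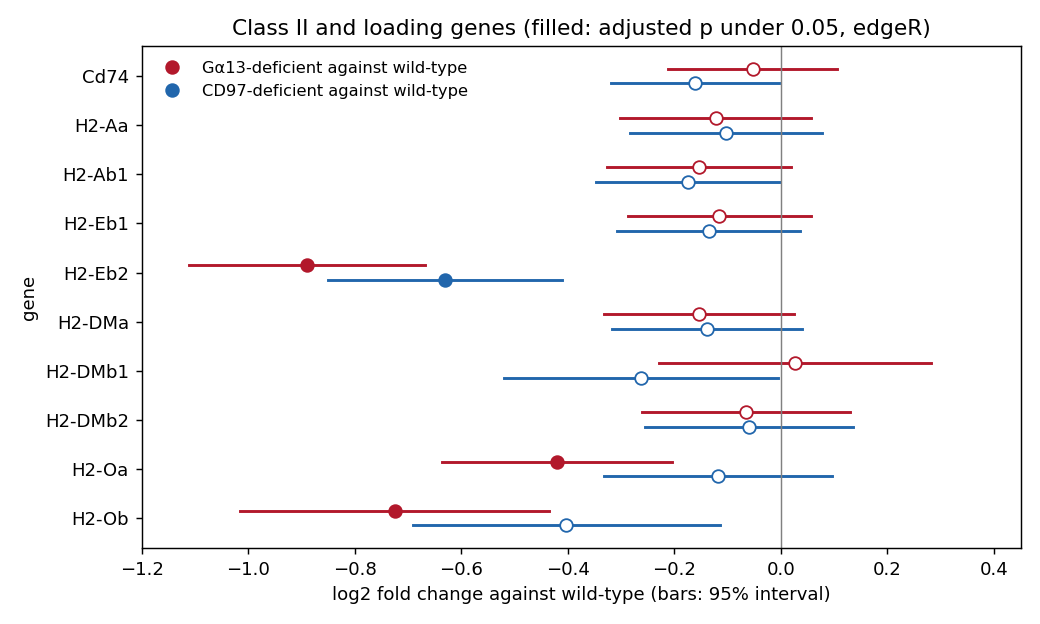
Log2 fold change against WT of each gene (points) with its 95% interval (bars) in Gα13-deficient and CD97-deficient cells; filled points passed an adjusted p of 0.05. H2-Eb2 is filled in both comparisons, at -0.89 and -0.63, and H2-Ob and H2-Oa in the Gα13-deficient cells alone, where the difference between the knockouts did not pass a test.

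CD97-deficient cells had lower H2-Eb2 RNA, and the other 9 genes did not pass the test. In this comparison 3.69% of all tested genes were called lower and 4.84% higher. The log2 fold changes of 10 of the 10 genes were below zero, with a median of -0.15 against -0.0034 over all tested genes, and 5 of the 10 had an unadjusted p under 0.05, as 24.5% of all tested genes had. Scaled by library totals alone, 331 genes were called lower and 774 higher, against 444 and 583 with TMM factors. Both comparisons use the same 3 WT libraries. H2-Eb2 had 134, 175 and 163 CPM in CD97-deficient libraries, against 223, 244 and 264 CPM in WT libraries. No CD97-deficient library reached the lowest WT library, and CD97-deficient replicate 1 was the lowest of its group. The log2 fold change was -0.63 ± 0.10 (SE; 95% interval -0.85 to -0.41; adjusted p = 0.00205, edgeR quasi-likelihood test), or 64.6% of WT. H2-Eb2 was called in 9 of 9 fits with 1 library left out and in 11 of 11 other alternatives with at least 2 libraries a group, including the sex pattern as a term (-0.60, adjusted p = 0.0299). Against the single female-pattern WT library it was -0.63, a value given with no test.

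H2-Ob had 482, 572 and 537 CPM in CD97-deficient libraries, against 731, 541 and 832 CPM in WT libraries. WT replicate 2 lay among the CD97-deficient libraries, and the other WT libraries above them all. The log2 fold change was -0.40 ± 0.13 (SE; adjusted p = 0.0834), which missed the threshold. It passed with DESeq2 (adjusted p = 0.0303) and without WT replicate 2 (-0.56, adjusted p = 0.00232), but was -0.15 with the sex pattern as a term (adjusted p = 0.619) and -0.02 against the single female-pattern WT library, with no test. H2-Oa had 181, 187 and 208 CPM in CD97-deficient libraries, against 194, 188 and 244 CPM in WT libraries, which overlapped (log2 fold change -0.12, 95% interval -0.33 to 0.10, adjusted p = 0.507).

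Of the abundant genes, H2-Ab1 had 5079, 5073 and 5004 CPM in CD97-deficient libraries, against 6000, 5330 and 5775 CPM in WT libraries. Cd74 had 10609, 10436 and 9743 CPM in CD97-deficient libraries, against 11120, 11762 and 11550 CPM in WT libraries. Neither overlapped, with log2 fold changes of -0.17 and -0.16, and neither passed after adjustment (adjusted p = 0.201 and 0.194). H2-Eb1 likewise lay below WT without overlap (-0.14, adjusted p = 0.325), so that with H2-Eb2 4 of the 10 genes did, beside 13.5% of all tested genes. H2-DMb1 had 149, 161 and 139 CPM in CD97-deficient libraries, against 218, 157 and 162 CPM in WT libraries, and the log2 fold change of -0.26 (adjusted p = 0.194) was -0.10 without WT replicate 1, its highest library. The 95% intervals of H2-Aa (-0.28 to 0.08), H2-DMa (-0.32 to 0.04) and H2-DMb2 (-0.25 to 0.14) included zero.

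Between the 2 knockouts 0 of the 10 genes passed the threshold. Of all tested genes 6, or 0.0498%, were called, 0.0166% lower and 0.0332% higher in Gα13-deficient cells. At an unadjusted p under 0.05 there were 4 of the 10 genes, beside 6% of all tested genes, and DESeq2 called 0. H2-Oa and H2-Ob lay below every CD97-deficient library in all 3 Gα13-deficient libraries, which 5.99% of tested genes did. The differences were -0.30 (95% interval -0.52 to -0.09, adjusted p = 0.668) for H2-Oa and -0.32 (-0.61 to -0.03, adjusted p = 0.782) for H2-Ob. H2-DMb1 went the other way, with 201, 179 and 169 CPM in Gα13-deficient libraries, against 149, 161 and 139 CPM in CD97-deficient libraries, as 7.16% of tested genes did (0.29, interval 0.03 to 0.55, adjusted p = 0.779). H2-Eb2 overlapped between the knockouts (-0.26, interval -0.48 to -0.04, adjusted p = 0.759). For H2-Aa, H2-Ab1, H2-Eb1, H2-DMa and H2-DMb2 the difference lay between -0.02 and 0.02, with intervals that ran from -0.20 to 0.19.

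Because both genes of a ratio come from the same library, ratios within a library do not depend on the scaling between libraries. The ratio of H2-O to H2-DM RNA, per kilobase, was 0.584, 0.585 and 0.631 in Gα13-deficient libraries, 0.776, 0.746 and 0.849 in CD97-deficient libraries and 0.809, 0.747 and 0.972 in WT libraries. The Gα13-deficient ratios were the 3 lowest, and CD97-deficient and WT ratios overlapped. H2-Eb2 RNA was 0.0235, 0.0244 and 0.0259 of H2-Eb1 RNA in Gα13-deficient libraries, 0.0262, 0.0323 and 0.0306 in CD97-deficient libraries and 0.0373, 0.0439 and 0.0450 in WT libraries. Here WT libraries were the 3 highest. The abundant chains kept more even proportions. The ratio of H2-Aa to H2-Ab1 averaged 1.06 ± 0.03, 1.09 ± 0.05 and 1.04 ± 0.08 in Gα13-deficient, CD97-deficient and WT cells, and that of H2-Eb1 to H2-Ab1 0.791 ± 0.036, 0.792 ± 0.026 and 0.771 ± 0.017 (SD, n = 3 each). Cd74 to the classical chains stood at 1.15 ± 0.05, 1.07 ± 0.06 and 1.09 ± 0.06 in the same order of groups. No test was made on ratios of genes chosen by name.

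**Figure D3:**
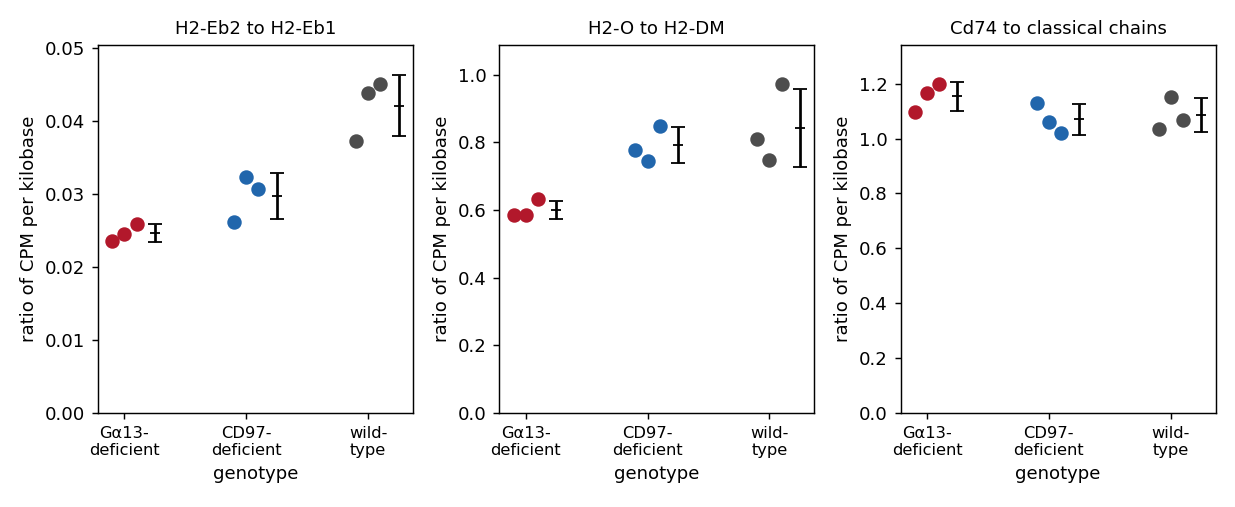
Ratios of CPM per kilobase within each library (points) with the group mean and SD (bars, n = 3), for H2-Eb2 to H2-Eb1, H2-O to H2-DM and Cd74 to the classical chains. H2-O to H2-DM lies at 0.584 to 0.631 in Gα13-deficient libraries and at 0.746 or more in the others, while the Cd74 ratios overlap between groups.

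The called genes did not sit side by side in the genome. Of the 10 genes, 9 lie on chromosome 17 between H2-Oa and H2-Eb2, and Cd74 lies on chromosome 18 (chr18:60803848-60812652). H2-Oa and H2-Eb2 are the outermost genes and H2-Ob lies between them. Its neighbour H2-Ab1 (chr17:34257689-34269419) had a log2 fold change of -0.15 in Gα13-deficient cells, and H2-Eb1 (chr17:34305867-34316674), the neighbour of H2-Eb2, one of -0.12. The region also holds Tap1 and Tap2, the peptide transporter of class I, Psmb8 and Psmb9, immunoproteasome subunits, and Brd2, a chromatin reader. None of these 5 was called in either comparison with WT, with log2 fold changes of -0.30 (Tap2) to 0.09 (Psmb8) in Gα13-deficient and -0.11 (Brd2) to 0.30 (Psmb8) in CD97-deficient cells. H2-Ea-ps, the remnant of the Eα gene, had 4 to 38 counts per library and was not called.

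**Figure D4:**
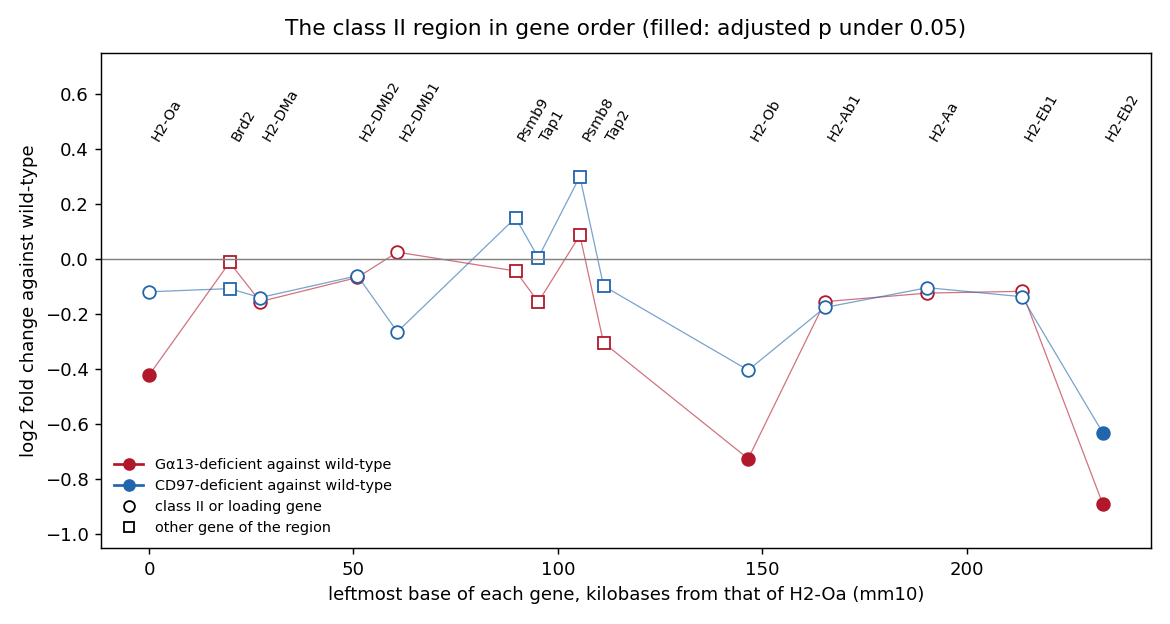
Log2 fold change against WT of the genes of the class II region in chromosome order (x axis: kilobases from the leftmost base of H2-Oa), circles for the class II and loading genes and squares for the other 5. Filled points, adjusted p under 0.05, are H2-Oa, H2-Ob and H2-Eb2 in Gα13-deficient cells and H2-Eb2 in CD97-deficient cells, each apart from the next by genes that were not called.

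The promoters of the 3 called genes are shown beside that of H2-Eb1, which was not called, because all 4 carry the letters of an X box core and a Y box core at nearly the same spacing. Each window holds 250 bases before and 50 bases after the start, from RefSeq (GRCm38.p6), 5′ to 3′ on the gene's strand. Capitals mark the spaced pair only: GCAAC, taken here as the X box core, and ATTGG, the Y box core bound by NF-Y in its reverse form CCAAT. The H2-Eb2 window holds 3 copies of GCAAC on the gene's strand, and the others of them, outside the spacing, stay in lower case. The letters and the spacing of 20 to 45 bases were chosen with these windows in view.
H2-Eb2: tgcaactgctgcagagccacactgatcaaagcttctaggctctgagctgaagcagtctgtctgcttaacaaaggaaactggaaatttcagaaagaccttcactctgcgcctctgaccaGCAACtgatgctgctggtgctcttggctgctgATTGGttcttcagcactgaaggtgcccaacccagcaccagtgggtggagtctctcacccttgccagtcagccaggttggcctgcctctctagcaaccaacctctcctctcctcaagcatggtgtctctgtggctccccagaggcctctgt
H2-Ob: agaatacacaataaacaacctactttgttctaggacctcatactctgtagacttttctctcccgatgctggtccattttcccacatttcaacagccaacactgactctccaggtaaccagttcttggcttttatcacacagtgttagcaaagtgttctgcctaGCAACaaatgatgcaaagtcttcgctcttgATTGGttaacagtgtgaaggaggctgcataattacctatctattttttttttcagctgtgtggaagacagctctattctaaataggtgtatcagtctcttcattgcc
H2-Oa: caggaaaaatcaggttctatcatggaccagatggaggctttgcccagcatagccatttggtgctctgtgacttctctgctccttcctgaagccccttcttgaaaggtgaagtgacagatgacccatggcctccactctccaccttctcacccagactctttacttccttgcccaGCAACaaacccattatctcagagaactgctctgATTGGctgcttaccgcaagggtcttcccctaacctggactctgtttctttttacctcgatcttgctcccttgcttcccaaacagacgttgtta
H2-Eb1: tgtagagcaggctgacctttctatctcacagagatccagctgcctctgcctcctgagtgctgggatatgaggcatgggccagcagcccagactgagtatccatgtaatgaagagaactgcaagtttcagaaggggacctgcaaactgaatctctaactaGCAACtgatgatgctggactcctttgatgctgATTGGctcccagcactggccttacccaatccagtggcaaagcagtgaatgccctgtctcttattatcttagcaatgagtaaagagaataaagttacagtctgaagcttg
The windows are chr17:34325425-34325724 for H2-Eb2, chr17:34238655-34238954 for H2-Ob, chr17:34092129-34092428 for H2-Oa and chr17:34305617-34305916 for H2-Eb1, all on the plus strand. From the first letter of GCAAC to the first letter of ATTGG there are 32 bases in H2-Eb2, 30 in H2-Ob, 33 in H2-Oa and 32 in H2-Eb1. In H2-Eb2 the pair starts at base -132, farther from the annotated start than in H2-Ob (-87), H2-Oa (-76) and H2-Eb1 (-91). H2-Aa has the pair too, at -81 with a spacing of 33, so it was found in 5 of the 8 genes whose windows were read. H2-DMa had no pair in chr17:34122582-34122881 or chr17:34125268-34125567. The first of these H2-DMa windows also covers the annotated start of Brd2 on the other strand. The same ordered pair on the gene's strand occurs in 0.6% of 32851 promoter windows, and on either strand in 1.24%. GCAAC alone occurs in 35.2% and ATTGG in 37.4%, on either strand. The windows of H2-DMb1 and H2-DMb2 hold ATTGG and no exact GCAAC. Ahead of ATTGG they read gtaactgatgatg and ttaaccgatgatg, where H2-Eb1 reads GCAACtgatgatg. Only exact letters were searched, so the count of genes with the pair leaves out such near matches. Genes with the pair thus include H2-Eb2, H2-Ob and H2-Oa, which were called, and H2-Aa and H2-Eb1, which were not.

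Genes that control class II transcription were read from a list of 25. Of these, 2 were lower and 1 was higher in Gα13-deficient cells, and 0 lower and 1 higher in CD97-deficient cells, beside 11% and 8.53% of all tested genes called in either direction, so the list's counts stood near or below the background. The median log2 fold change of the 25 was 0.00058 and -0.09. Ciita, the class II coactivator, had 764, 691 and 651 CPM in Gα13-deficient libraries, 693, 718 and 762 CPM in CD97-deficient libraries and 891, 700 and 843 CPM in WT libraries. Its groups overlapped, and the log2 fold changes were -0.21 and -0.16 (adjusted p = 0.177 and 0.309). Without WT replicate 2, the lowest WT library, Ciita was called in Gα13-deficient cells (-0.30, adjusted p = 0.0393). Rfx5, the DNA-binding subunit of the RFX complex, had 153, 147 and 140 CPM in Gα13-deficient libraries, 157, 177 and 156 CPM in CD97-deficient libraries and 185, 186 and 203 CPM in WT libraries. It lay below WT in all 6 knockout libraries, and the log2 fold change was -0.38 ± 0.08 in Gα13-deficient cells (SE; adjusted p = 0.00964) and -0.23 ± 0.08 in CD97-deficient cells (adjusted p = 0.113). Irf4, a transcription factor that cDC2s depend on, fell in Gα13-deficient cells (-0.37 ± 0.09, adjusted p = 0.0132) and was not called in CD97-deficient cells (-0.16, adjusted p = 0.29). The call of Irf4 was lost without Gα13-deficient replicate 2 (adjusted p = 0.0629). Hdac2, a histone deacetylase, rose by 0.54 ± 0.11 (adjusted p = 0.0051) in Gα13-deficient and by 0.47 ± 0.11 (adjusted p = 0.0148) in CD97-deficient cells. In CD97-deficient cells Hdac2 was not called without CD97-deficient replicate 1 or 3 (adjusted p = 0.0562 and 0.0608) or with the sex pattern or the B cell marker level as a term (adjusted p = 0.144 and 0.116). Within the male-pattern libraries Rfx5, Irf4 and Hdac2 kept their directions in Gα13-deficient cells and were not called (adjusted p = 0.124, 0.204 and 0.0739), nor were Rfx5 and Irf4 with a replicate block by column numbers (adjusted p = 0.0625 and 0.0867).

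Among 24 genes of invariant chain processing and of class II turnover at the surface, 2 were lower and 1 higher in Gα13-deficient cells. In CD97-deficient cells 1 was lower and 1 higher. Of all tested genes 11% and 8.53% were called in either direction in these comparisons, so the list's counts stood near the background. Cd83, which keeps class II at the surface by opposing its ubiquitination, had 191, 196 and 160 CPM in Gα13-deficient libraries, 188, 207 and 204 CPM in CD97-deficient libraries and 310, 332 and 333 CPM in WT libraries. No knockout library reached a WT library. The log2 fold change was -0.84 ± 0.09 in Gα13-deficient cells (SE; adjusted p = 0.000108) and -0.70 ± 0.09 in CD97-deficient cells (adjusted p = 0.00059). March1, the ligase that ubiquitinates class II, had log2 fold changes of -0.07 and -0.06 (adjusted p = 0.664 and 0.735). Ctss, the protease that cuts the last piece of the invariant chain to CLIP, had 0.05 and 0.01 (adjusted p = 0.797 and 0.969). The tetraspanin Cd9 rose by 0.37 ± 0.10 (adjusted p = 0.0303) in Gα13-deficient and by 0.50 ± 0.10 (adjusted p = 0.00863) in CD97-deficient cells. The tetraspanin Cd63 was lower in Gα13-deficient cells (-0.79 ± 0.22, adjusted p = 0.0358) and had -0.75 in CD97-deficient cells (adjusted p = 0.0532). Cd63 was called in 3 of 9 and Cd9 in 5 of 9 fits of Gα13-deficient cells that left out a library, with adjusted p up to 0.13 without WT replicate 2 and up to 0.129 without Gα13-deficient replicate 2, and in 9 of 12 and 7 of 12 other alternatives. Cd63 was not called with a replicate block (adjusted p = 0.0502), in male-pattern libraries (0.234) or with the level of Cd79a, Ms4a1 and Pax5 as a term (0.0582). Cd9 was not called in a fit of the 2 groups (0.0592), with a replicate block in the 2 groups (0.0578) or by column numbers (0.07), in male-pattern libraries (0.259) or with the same 3-gene term (0.0527). In CD97-deficient cells Cd9 was not called with the sex pattern or the B cell marker level as a term (adjusted p = 0.12 and 0.337).

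B cells also make class II and H2-O, so B cell RNA was read beside these results. Of 18 B cell markers 16 were in the table, with 0 at zero in all libraries, and they summed to 526 to 663 CPM in Gα13-deficient, 634 to 833 CPM in CD97-deficient and 549 to 585 CPM in WT libraries. Most of that sum was Cd22 and Spib. Cd79a, Ms4a1 and Pax5 together had 16.5, 13.6 and 12.3 CPM in Gα13-deficient libraries, 15.02, 17.7 and 33.4 CPM in CD97-deficient libraries and 19.96, 14.9 and 13.6 CPM in WT libraries. CD97-deficient replicate 3 was the highest by these 3 genes. Of the 15 that were tested, Cr2 and Bank1 were called lower in Gα13-deficient cells (-1.19 and -0.42, adjusted p = 0.0106 and 0.0384). In CD97-deficient cells 0 of the list were called. Of all tested genes 11% and 8.53% were called in either direction in these comparisons. With the summed B cell level as a term, which mostly follows Cd22 and Spib, H2-Eb2 (-0.92, adjusted p = 0.000132), H2-Ob (-0.72, adjusted p = 0.0123) and H2-Oa (-0.44, adjusted p = 0.0119) were still called in Gα13-deficient cells, and H2-Eb2 (-0.82, adjusted p = 0.0334) in CD97-deficient cells. The summed level of Cd79a, Ms4a1 and Pax5 was also used as the term, a choice made after the data were seen. H2-Eb2, H2-Ob and H2-Oa were then called at -0.88, -0.72 and -0.41 in Gα13-deficient cells (adjusted p = 0.000549, 0.0121 and 0.0286). In CD97-deficient cells H2-Eb2 was called at -0.66 (adjusted p = 0.00801). In Gα13-deficient cells Cd79a (0.20), Pax5 (0.53) and Ms4a1 (-0.42) were not called, unlike Cr2 and Bank1. Neither term thus follows every B cell gene, and the part of B cell RNA in the class II values was not tested.

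Markers of other splenic cell types were also read. cDC1 markers summed to 1963 to 2082 CPM in Gα13-deficient, 2147 to 2272 CPM in CD97-deficient and 2014 to 2144 CPM in WT libraries, plasmacytoid dendritic cell markers to 661 to 851, 576 to 697 and 585 to 756 CPM, and monocyte markers to 1233 to 1708, 989 to 1172 and 752 to 1262 CPM. Macrophage markers varied most within groups, at 759, 970 and 606 CPM in Gα13-deficient libraries, 1805, 487 and 1116 CPM in CD97-deficient libraries and 643, 1414 and 432 CPM in WT libraries. T cell markers stayed at 21.1 to 39.8 CPM and neutrophil markers at 23.9 to 44.1 CPM over all 9 libraries. Single markers moved inside these sums, named here after their values were seen. Of all tested genes 11% were called in either direction in Gα13-deficient and 8.53% in CD97-deficient cells, against WT. Of 12 tested cDC1 markers 1 was lower (Batf3, -0.43) and 2 were higher (Naaa, 0.83, and Xcr1, 1.22) in Gα13-deficient cells, and 3 were higher in CD97-deficient cells (Naaa, 0.51, Xcr1, 1.32, and Sept3, 1.29), all as log2 fold changes against WT. Wdfy4, which was not called, made up most of the cDC1 sum. Xcr1, the chemokine receptor that marks cDC1s, averaged 14.4 ± 1.48, 15.4 ± 7.42 and 6.25 ± 2.19 CPM in Gα13-deficient, CD97-deficient and WT libraries (SD, n = 3 each). Of 11 plasmacytoid markers 2 were higher in Gα13-deficient cells, Tcf4 (0.40) and Cox6a2 (2.89), and 0 were called in CD97-deficient cells. Cox6a2 averaged 9.49 ± 1.67, 0.86 ± 0.18 and 1.23 ± 0.85 CPM in the same order of groups (SD, n = 3 each). Of 14 macrophage markers Emr1 alone was called, lower in both (-0.73 and -0.62). Emr1 went against its list, whose median log2 fold change was 0.17 in Gα13-deficient and 0.89 in CD97-deficient cells. Of 9 tested monocyte markers S100a4 was called higher in Gα13-deficient cells (0.35). The part of these cell types in the values of the 10 genes was not tested.

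Across the 9 libraries pairs of the 10 genes moved together to different degrees. Pearson's r of log2 CPM is given for some pairs without a test, since the libraries share genotypes. H2-Ab1 and H2-Eb1 had an r of 0.91, and H2-Aa and H2-Eb1 one of 0.88. H2-Oa and H2-Ob had an r of 0.88, and H2-Eb2 and H2-Ob one of 0.87. H2-DMa had 0.84 with H2-Aa, 0.82 with H2-Eb2 and 0.79 with H2-Ob, and H2-Ab1 had 0.71 with H2-Ob. H2-DMb1 and H2-DMb2, the alternative β chains, had -0.25, and Cd74 and H2-Oa -0.05. Among 10134 genes with a mean log2 CPM of at least 2, the most alike gene outside the 10 was Vps37a for H2-Eb2 (0.98), BC055004 for H2-Ob (0.98), D4Wsu53e for H2-Oa (0.98), Pan3 for H2-Ab1 (0.96), Kbtbd11 for H2-DMb1 (0.96), Farp1 for H2-DMa (0.95), Idua for H2-Eb1 (0.95), Map3k7 for H2-DMb2 (0.94), Zbtb34 for H2-Aa (0.91) and Mthfs for Cd74 (0.91). Each of these r is the largest found among 10134 genes over 9 libraries, so a high value is partly set by the search itself. The closest of the other 9 genes ranked 10 for H2-Aa and 51 for H2-Oa, but 1120 for H2-DMb1 and 402 for Cd74.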

How the data were processed

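Whole-number counts per gene were made and deposited by the authors; the submitters' processing notes name STAR, HTSeq, DESeq2 and the mm10 build, with no versions, and the sources used here give no settings, including the use of strand. No gene in the table has a total under 10 counts. Counts of all 9 libraries (3 per genotype, grouped by the sample titles) entered 1 fit in edgeR 4.0.16 (R 4.3.3) with TMM factors, the default expression filter (2166 genes removed) and robust quasi-likelihood F-tests, with Benjamini-Hochberg adjustment over 12043 genes and a threshold of 0.05. The common biological coefficient of variation was 0.15. CPM are TMM-scaled, and lengths are merged exons of GENCODE mouse release 21, to which 12797 symbols matched directly and 1219 by synonym.

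The 10 genes, the other lists and the rule for named genes were chosen with earlier results of these data known. That rule takes the 10 genes, both targeted genes, Ciita, Rfx5, Ctss, Cd83 and March1, and up to 5 called genes per pathway list; likeness takes the most alike gene without a Gm or Rik symbol. Grouping Cd79a, Ms4a1 and Pax5 was chosen after their values were seen. Source names tied WT columns to samples. WT columns and source names run from 2 to 4 where the titles run from 1 to 3, and replicate numbers follow the titles. The labels do not say that a number marks a shared animal or day; same-number Gα13-deficient and WT libraries deviated together (r = 0.111 to 0.179, 3 of 3 pairs over 0.1), CD97-deficient and WT libraries did not (-0.30 to 0.06, 0 of 3), nor did the knockouts (-0.07 to 0.01, 0 of 3). By the column numbers, which leave 2 pairs with WT, these r were -0.12 to -0.06 for Gα13-deficient and 0.116 to 0.118 for CD97-deficient libraries, so which libraries pair, if any, cannot be told. By title number, Gα13-deficient and WT libraries also share their sex pattern pair by pair. The part of the sex pattern in the r of 0.111 to 0.179 was not tested. In the fit of female-pattern libraries the spread comes from the 3 CD97-deficient libraries alone, so only its values are given in the results. In counts simulated for Gα13-deficient against WT cells, with 11970 genes fitted, the test recovered 20 of 60 genes set to 1.5-fold, 62 of 74 set to 2-fold and 65 of 66 set to 4-fold, with 9 false calls. Alternatives covered normalization, the filter, DESeq2 1.42.0, the libraries fitted, a replicate block, sex pattern and B cell level. Promoter windows come from RefSeq; those of H2-Ab1 and Cd74 were not used here.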

Additional observations from a re-analysis of the deposited data

How the results depend on the processing

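H2-Eb2 kept its direction in both comparisons with WT under every alternative run, and its call in those with at least 2 libraries a group. In counts simulated at this depth 20 of 60 genes changed 1.5-fold were recovered, so that changes of this size can be missed among tested genes. Those genes were drawn at random over all levels, each with the common coefficient of variation. The share recovered therefore does not give the rate for H2-Oa or the other class II and loading genes.

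Genes called in Gα13-deficient against WT cells numbered 1322, and 693 to 1459 without single libraries (fewest without Gα13-deficient replicate 2), 611 in male-pattern and 255 in female-pattern libraries. The fits by sex pattern, by column numbers and with a Cd79a, Ms4a1 and Pax5 term were chosen after the data were seen. No count is given for the female-pattern libraries. That fit assumes that the single Gα13-deficient and WT libraries vary like the 3 CD97-deficient ones, which alone give the spread. Of the 10 class II and loading genes 3 were called in Gα13-deficient against WT cells, and 2 to 3 without single libraries. In CD97-deficient against WT cells 1027 genes were called, 364 to 1271 without single libraries (fewest without CD97-deficient replicate 3), 222 with the sex pattern as a term, 86 with the B cell level, 563 with the Cd79a, Ms4a1 and Pax5 level and 233 in female-pattern libraries; of the 10, 1 was called, 1 to 2 without single libraries and 2 with DESeq2. Between the knockouts 6 genes were called, 4 to 25 without single libraries, 11 without the filter, 54 with DESeq2, 53 in a fit of the 2 groups, 14 with a replicate block, 73 with the block in the 2 groups, 39 with the block by column numbers and 24 in female-pattern libraries. The replicate block left 1338 and 1087 genes called against WT and changed the call of none of the 10. By column numbers the replicate block left 886 and 957, and H2-Oa was no longer called in Gα13-deficient cells. The cause of these shifts was not tested.

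Values that turned sign were all uncalled. Against WT in Gα13-deficient cells, H2-DMb1 ran from -0.060 to 0.20 without single libraries and was -0.045 in male-pattern libraries, where Cd74 was 0.00018; H2-DMb2 was 0.027 in female-pattern libraries. Ctss ran from -0.036 to 0.12 and Cd97 from -0.31 to 0.040 without single libraries, and both turned in female-pattern libraries (-0.22 and 0.45). In CD97-deficient cells H2-Oa ran from -0.19 to 0.0093, Ctss from -0.079 to 0.082 and March1 from -0.12 to 0.015 without single libraries. March1 was 0.011 with the sex pattern and 0.048 with the B cell level. In female-pattern libraries H2-Oa was 0.038, Ciita 0.053, Ctss -0.12 and March1 0.041. Between the knockouts, without single libraries, H2-Aa ran from -0.11 to 0.030, H2-Ab1 from -0.053 to 0.075, H2-Eb1 from -0.061 to 0.070, H2-DMa from -0.067 to 0.038 and H2-DMb2 from -0.062 to 0.069. H2-DMb2 was 0.0066 without the filter, 0.041 with the sex pattern, 0.090 with the B cell level and 0.087 in female-pattern libraries. H2-Ab1 was -0.085, -0.017 and -0.091 under the last 3 of these. H2-Eb1 was -0.039 with the sex pattern and -0.034 in female-pattern libraries. With the B cell level H2-Aa was 0.022 and H2-DMa 0.046, and with the Cd79a, Ms4a1 and Pax5 level H2-Aa was 0.0019. With the replicate block by column numbers, H2-DMb1 was -0.057, H2-DMb2 0.043 and Ctss -0.10 in Gα13-deficient cells, and H2-DMb2 was 0.049, H2-Oa 0.033, Gna13 -0.023 and Ctss -0.15 in CD97-deficient cells, against WT.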
